A study of Homo sapiens with 12 samples.

Results

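IFITM1, IFITM2 and IFITM3, the interferon-induced members of the IFITM family, were the 3 genes described here, taken by symbol from a table of 60099 genes. They were measured by lncRNA sequencing in 2 established HNSCC cell lines, Cal27 and HN30, which were left untreated or were given 20 or 200 ng/ml IFNα for 24 h. The 12 samples are named by a letter and a replicate number. Letters A and D were controls, B and E received the low dose of 20 ng/ml, and C and F received the high dose of 200 ng/ml, with 2 replicates per letter. Every dose occurs once among A, B and C and once among D, E and F, so these sets, A-C and D-F, were taken as the 2 lines. The sources used here do not name which set is which line. No source states whether replicates came from separate cultures, so the p-values measure only the spread between these samples, which may be technical. No genetic change or second agent is given for any group.

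IFITM proteins are small membrane proteins that share a conserved CD225 domain and block the fusion of many enveloped viruses with host membranes. IFITM1 is found mainly at the cell surface, whereas IFITM2 and IFITM3 carry an extra stretch at the N terminus with a tyrosine-based sorting signal that brings them from the surface into endosomes. IFNα binds the receptor IFNAR1/IFNAR2, the kinases JAK1 and TYK2 then switch on the factor ISGF3, which contains IRF9 and binds interferon-stimulated response elements (ISREs) near the starts of its target genes.

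The beginnings of the 3 coding sequences are shown because the sorting signal that sets IFITM1 apart lies there. The first 75 coding bases of IFITM1-201, IFITM2-202 and IFITM3-201 are given from GENCODE release 29, 5′ to 3′, and capitals mark the codons of the sorting signal.
IFITM1: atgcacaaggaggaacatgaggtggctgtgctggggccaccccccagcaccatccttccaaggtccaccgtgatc
IFITM2: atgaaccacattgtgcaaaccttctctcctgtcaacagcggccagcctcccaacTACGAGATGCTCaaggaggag
IFITM3: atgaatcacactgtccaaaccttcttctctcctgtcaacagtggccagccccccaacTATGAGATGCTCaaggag
The signal lay at coding bases 55 to 66 of IFITM2 and 58 to 69 of IFITM3 and was not found in IFITM1. The coding sequences encode 125, 132 and 133 amino acids in IFITM1, IFITM2 and IFITM3. Over the aligned bases, IFITM2 and IFITM3 were 94.0% identical, IFITM1 and IFITM3 were 90.2% identical, and IFITM1 and IFITM2 were 86.9% identical.

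Short stretches around the ISRE cores are shown because all 3 genes rose with IFNα. They come from the RefSeq promoter table (GRCh38.p14), which held IFITM1 and IFITM3. The core was searched as GAAANNGAA on both strands in windows of 270 bases, 250 of them before the start site, and capitals mark the matches.
IFITM1, chr11:313992-314016, plus strand: aacagcagGAAATAGAAacttaaga
IFITM1, chr11:314022-314048, plus strand: acacacttctgaGAAACTGAAacgaca
IFITM3, chr11:320885-320914, minus strand: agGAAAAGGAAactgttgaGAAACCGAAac
The cores of IFITM1 began 40 and 6 bases before its RefSeq start site, and those of IFITM3 began 52 and 35 bases before its own. A core was present in 7.45% of 35116 promoters, and 0.635% held at least 2 cores. A STAT dimer site, searched as TTCNNNGAA, was found in IFITM1 as TTCTGAGAA, beginning 12 bases before the start site and overlapping the second core, and it was present in 7.05% of the promoters. In GENCODE, IFITM1-202 and IFITM3-201 start 187 and 190 bases upstream of these RefSeq start sites, so the windows overlap annotated transcripts. The cores shown therefore lie downstream of the starts of these 2 transcripts, of which IFITM3-201 is the main transcript of IFITM3. IFITM1-201 and IFITM1-204, to which most IFITM1 counts were given in the treated samples, start 513 and 534 bases upstream, outside the window, so the stretches shown for IFITM1 are not those before the starts of these transcripts. A match is a description of the letters and does not show binding.

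The genes lie side by side on chromosome 11 (GRCh38). In the deposited table IFITM2 (ENSG00000185201) spans 307631 to 315272 and IFITM1 (ENSG00000185885) spans 313506 to 315272, both on the plus strand. IFITM3 (ENSG00000142089) spans 319669 to 327537 on the minus strand. IFITM2 overlaps IFITM1 because of a single transcript, IFITM2-201, whose last exon of 351 bases (314922 to 315272) is also an exon of IFITM1 and makes up 91.9% of its length. Shared sequence limits how reads can be divided, and the exon that IFITM2-201 shares with IFITM1 is counted in the values that follow. Of all 75-base words of IFITM1-201, 36.1% also occurred in a transcript of another gene. IFITM2, with IFITM2-201 among its transcripts, held 33.4%, and IFITM3 held 8.70%. The share found in another gene was 8.03% for IFITM2-202 and 10.8% for IFITM3-201. At 150 bases the share was 26.2% for IFITM1-201, all of it with IFITM2, and no word of IFITM2-202 or IFITM3-201 was shared. The longest identical run between the coding sequences of IFITM1-201 and IFITM2-202 was 99 bases. It was also 99 bases for IFITM2-202 and IFITM3-201, and 141 bases for IFITM1-201 and IFITM3-201.

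Without IFNα the members differed widely in abundance, and the A-C cells held more of all 3 than the D-F cells. Levels are given as TPM, an abundance scaled for transcript length and library size, which can be compared between genes. IFITM3 had 537 and 565 TPM in A1 and A2 and 300.3 and 150 TPM in D1 and D2. It was the highest member in every control sample, and in the A-C controls it ranked between 150 and 161 among all genes. IFITM1 had 58.5 and 67.9 TPM in the A-C controls and 6.15 and 2.13 TPM in the D-F controls. IFITM2 had 68.7 and 70.4 TPM in the A-C controls but 3.15 and 0.882 TPM in the D-F controls, which rest on 18 and 8 counts. IFITM2 was thus slightly above IFITM1 in A1 and A2 and below it in D1 and D2.

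The difference between the control levels of the line sets passed the test for each member. A gene was called when it differed at least 2-fold and its adjusted p was at most 0.05 in edgeR's quasi-likelihood test with Benjamini-Hochberg adjustment over 19944 genes. The log2 difference of the D-F from the A-C controls was -5.11 for IFITM2 (SE 0.28, adjusted p = 9.07e-07), so D-F was 34.6-fold lower. It was -4.03 for IFITM1 (SE 0.65, adjusted p = 7.35e-04), or 16.3-fold lower, and -1.43 for IFITM3 (SE 0.24, adjusted p = 9.50e-04), or 2.70-fold lower. The D-F controls set these sizes, since without D1 and without D2 the values were -5.82 and -4.63 for IFITM2, -4.93 and -3.47 for IFITM1, and -2.01 and -1.02 for IFITM3, all called. The background was broad, because 11% of the genes tested were called lower in the D-F controls. In bulk samples, fewer cells that express a gene and less RNA per cell cannot be told apart.

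**Figure D1:**
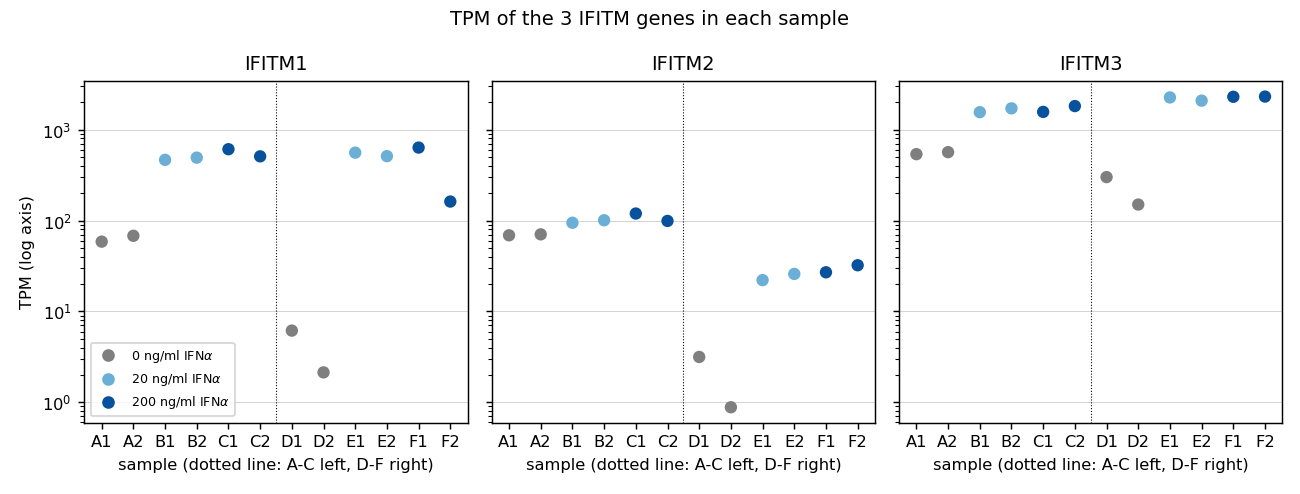
TPM of IFITM1, IFITM2 and IFITM3 (y, log axis) in each of the 12 samples (x), coloured by IFNα dose, with A-C left and D-F right of the dotted line. After IFNα, IFITM1 lay between 465 and 635 TPM except in F2 (162 TPM), IFITM3 was higher in every D-F sample (2084 to 2310 TPM) than in every A-C sample (1556 to 1815 TPM), and IFITM2 stayed lower in D-F, between 22.1 and 32.2 TPM.

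IFITM3 was the most abundant member after treatment. At 20 ng/ml it had 1556 and 1714 TPM in B1 and B2 and 2259 and 2084 TPM in E1 and E2. At 200 ng/ml it had 1567 and 1815 TPM in C1 and C2 and 2297 and 2310 TPM in F1 and F2. Every treated sample lay above every control, and among all genes IFITM3 ranked between 34 and 38 in the treated A-C cells and between 23 and 28 in the treated D-F cells. Over both line sets it rose by a log2 fold change of 2.46 at 200 ng/ml (SE 0.18, adjusted p = 2.40e-05) and of 2.39 at 20 ng/ml (SE 0.18, adjusted p = 3.62e-05), which are 5.50-fold and 5.23-fold. All 3 members were called higher at 200 ng/ml, where 1.58% of the genes tested were called higher, and all 3 at 20 ng/ml, where 0.963% were.

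IFITM1 had the largest fold change of the family at both doses, over both line sets and within each. It had 465 and 492 TPM in B1 and B2 and 558 and 511 TPM in E1 and E2. At 200 ng/ml it had 609 and 508 TPM in C1 and C2, but 635 TPM in F1 and 162 TPM in F2. F2 was the lowest treated sample, yet it lay above every control. It rose on the log2 scale by 4.74 at the high dose (SE 0.43, adjusted p = 1.29e-04) and by 4.90 at the low dose (SE 0.43, adjusted p = 1.43e-04), or 26.7-fold and 29.9-fold. At the high dose the value was 5.07 without F2 and 4.09 without F1.

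Over both line sets, IFITM2 had the smallest fold change of the family. It had 94.5 TPM in B1, 101 TPM in B2, and 119 and 98.9 TPM in C1 and C2. In the D-F cells it had 22.1 and 25.8 TPM in E1 and E2 and 26.9 and 32.2 TPM in F1 and F2. The treated D-F samples therefore lay below the untreated A-C samples, although within each set every treated sample exceeded its controls. It rose on the log2 scale by 2.02 at the high dose (SE 0.18, adjusted p = 1.10e-04) and by 1.76 at the low dose (SE 0.18, adjusted p = 4.03e-04), or 4.05-fold and 3.40-fold. Without the counts of IFITM2-201 these values were 1.72 (adjusted p = 5.63e-04) and 1.44 (adjusted p = 0.00282), in a fit chosen after seeing the data.

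No difference between the 2 doses was detected for any member. The log2 difference of 200 against 20 ng/ml was -0.16 for IFITM1 (95% interval by a normal approximation, -0.83 to 0.51), 0.25 for IFITM2 (-0.05 to 0.55) and 0.07 for IFITM3 (-0.25 to 0.40). None of the 3 was called, with adjusted p-values of 0.943, 0.647 and 0.953 and no unadjusted p-value under 0.05, and DESeq2 called none either. The intervals leave room for a change of less than 2-fold in either direction. The value of IFITM1 rests on F1 and F2, as it was -0.81 without F1 (unadjusted p = 0.00254, not called after adjustment) and 0.15 without F2. Few genes moved between the doses, as 0.0451% of those tested were called in either direction.

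Within A-C cells, IFITM1 and IFITM3 rose at both doses and IFITM2 did not pass the test. At 200 ng/ml the log2 fold changes were 3.15 for IFITM1 (SE 0.53, adjusted p = 0.00995) and 1.64 for IFITM3 (SE 0.24, adjusted p = 0.00545), against 0.72 for IFITM2 (SE 0.21, adjusted p = 0.0703). At 20 ng/ml they were 2.90, 1.56 and 0.50, with adjusted p-values of 0.0337, 0.0141 and 0.356. The share of genes called higher within A-C was 1.41% at 200 ng/ml and 0.632% at 20 ng/ml.

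Within D-F cells all 3 members rose at both doses. At 200 ng/ml the log2 fold changes were 6.33 for IFITM1 (SE 0.67), 3.31 for IFITM2 (SE 0.29) and 3.28 for IFITM3 (SE 0.26), and at 20 ng/ml they were 6.90, 3.03 and 3.21. The share of genes called higher within D-F was 1.67% at 200 ng/ml and 1.2% at 20 ng/ml. For IFITM2 without IFITM2-201, the D-F values were 2.82 and 2.42, and both were still called.

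**Figure D2:**
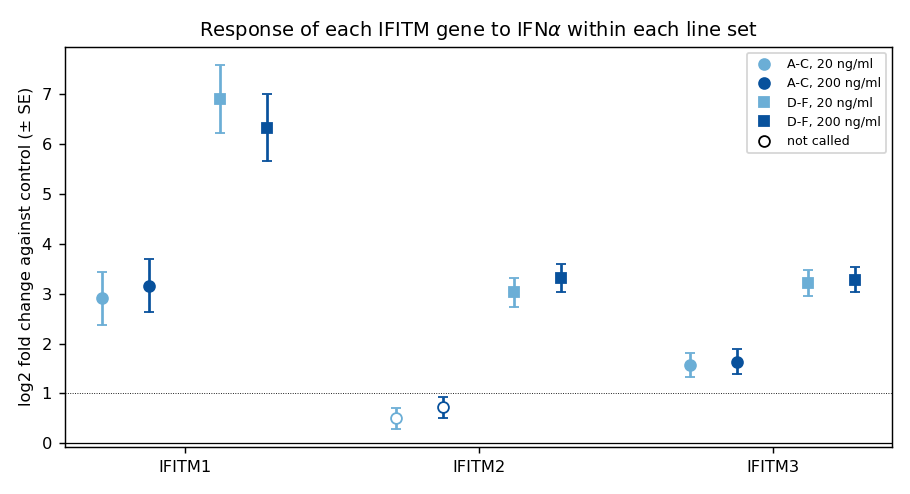
Log2 fold change against control with its SE (y) for each gene (x), within A-C (circles) and D-F (squares) at 20 and 200 ng/ml; filled symbols were called. Every D-F value lies above the A-C value of the same gene and dose, and the open symbols are IFITM2 in A-C, at 0.50 and 0.72.

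The difference between these responses was tested directly as an interaction. The response of D-F at 200 ng/ml exceeded that of A-C by 2.59 on the log2 scale for IFITM2 (SE 0.36, adjusted p = 0.0110) and by 1.64 for IFITM3 (SE 0.34, adjusted p = 0.0455), and both were called. For IFITM1 it exceeded it by 3.17 (SE 0.82) without passing the test (adjusted p = 0.0888). Leaving out F2 gave 3.82 for IFITM1 (adjusted p = 0.0136), whereas leaving out F1 gave 1.89 (adjusted p = 0.105). The call of IFITM3 held only without D1 (2.20) or D2 (1.23), and leaving out any other sample gave adjusted p-values of 0.0726 to 0.131. Without F2, IFITM2 had 2.46 (adjusted p = 0.0509). Without D1 the values were 3.29 for IFITM2 and 4.06 for IFITM1 at 200 ng/ml and 3.21 and 4.87 at 20 ng/ml. With the replicate number as a block neither gene was called at this dose (adjusted p = 0.0585 for IFITM2 and 0.0714 for IFITM3), nor was IFITM3 with upper-quartile factors (adjusted p = 0.0505). Of the genes tested, 0.998% were called in either direction at this dose. At 20 ng/ml only IFITM2 was called, with 2.53 (SE 0.36, adjusted p = 0.0208), beside 4.0 for IFITM1 and 1.65 for IFITM3, both with an adjusted p of 0.0884, and 0.231% of genes were called. This call of IFITM2 was lost without A2, B1, B2, E1 or E2 (adjusted p = 0.0538 to 0.0951), while IFITM1 was called there without F1 (4.0) or F2 (3.97) and IFITM3 without D1 (2.19) or D2 (1.24). The call of IFITM2 was also lost with the replicate block (adjusted p = 0.104) and without the counts of IFITM2-201 (1.96, adjusted p = 0.0855), while its call at 200 ng/ml held (2.20, adjusted p = 0.0292).

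The level reached after IFNα was compared between the line sets in contrasts added after seeing the data. IFITM3 did not pass the test, with D-F above A-C by 0.21 on the log2 scale at 20 ng/ml (SE 0.23, adjusted p = 0.490) and by 0.21 at 200 ng/ml (SE 0.23, adjusted p = 0.498). IFITM1 differed by -0.03 at 20 ng/ml (95% interval, -0.98 to 0.91) and by -0.86 at 200 ng/ml (-1.81 to 0.10). The latter rests on F1 and F2, since it was -0.21 without F2 and -2.14 without F1 (adjusted p = 0.00108). IFITM2 stayed lower in D-F, with log2 differences of -2.58 at 20 ng/ml (SE 0.23, adjusted p = 1.62e-05) and -2.52 at 200 ng/ml (SE 0.22, adjusted p = 1.67e-05), or 5.99-fold and 5.73-fold lower. The shares of genes called lower in D-F were 10.4% and 11.6%. These differences share samples with the responses and the control difference above, so the 3 sets of values are not independent.

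**Figure D3:**
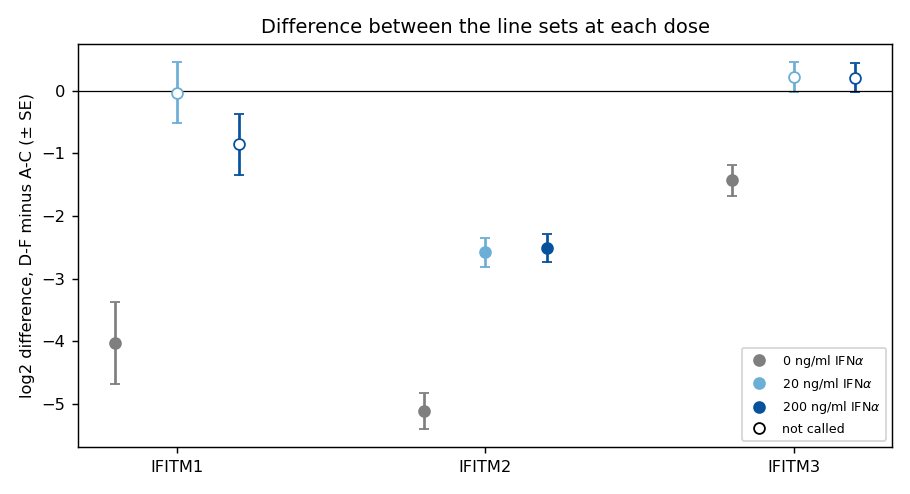
Log2 difference between the line sets, D-F minus A-C, with its SE (y) for each gene (x) at each IFNα dose; filled symbols were called. All 3 genes lie below 0 without IFNα, and after IFNα only IFITM2 was called, at -2.58 and -2.52.

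The makeup of the family was different in the treated samples, mainly in the share of IFITM1. The summed TPM of the 3 genes was 664 and 703 in A1 and A2 and 310 and 153 in D1 and D2, and it was between 2115 and 2959 in the treated samples, or at most 0.296% of all TPM. IFITM1 took 8.81% and 9.65% of this sum in A1 and A2, 1.99% and 1.40% in D1 and D2, and between 19.5% and 26.5% in 7 of the 8 treated samples. In F2 it took 6.46%, more than in the D-F controls and less than in the A-C controls. IFITM3 took 80.3% to 98.0% of the sum in the controls and 68.3% to 92.3% in the treated samples.

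Averaged over the line sets, the share of IFITM1 went from 5.46% in the controls to 20.6% at 20 ng/ml and 18.9% at 200 ng/ml, and that of IFITM3 went from 89.1% to 76.7% and 78.3%. Each of these 4 differences had p = 0.0556 when doses were exchanged within line sets in an exact permutation test (two-sided), the smallest value that the 36 arrangements allow, so the design cannot reach 0.05. The share of IFITM2 went from 5.49% to 2.65% and 2.87% (exact p = 0.222 and 0.278). The 2 sets differed here, because IFITM2 took 10.2% ± 0.24 (SD, n = 2) in the A-C controls and 4.41% ± 0.073 at 20 ng/ml, but 0.798% ± 0.31 in the D-F controls and 0.882% ± 0.15 at 20 ng/ml.

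Ratios between members were also taken within each sample. The log2 TPM ratio of IFITM1 over IFITM3 was higher than in the controls by 2.27 at 200 ng/ml and by 2.60 at 20 ng/ml, and that of IFITM1 over IFITM2 by 2.41 and 2.90 (exact p = 0.0556 for each, n = 4 per dose). The ratio of IFITM2 over IFITM3 moved by -0.14 and -0.30 (exact p = 0.833 and 0.333). That mean joined values of -2.98 in the controls and -4.07 at 20 ng/ml in A-C with values of -6.98 and -6.50 in D-F. Over the 12 p-values of shares and ratios, no test could pass a correction in this design.

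**Figure D4:**
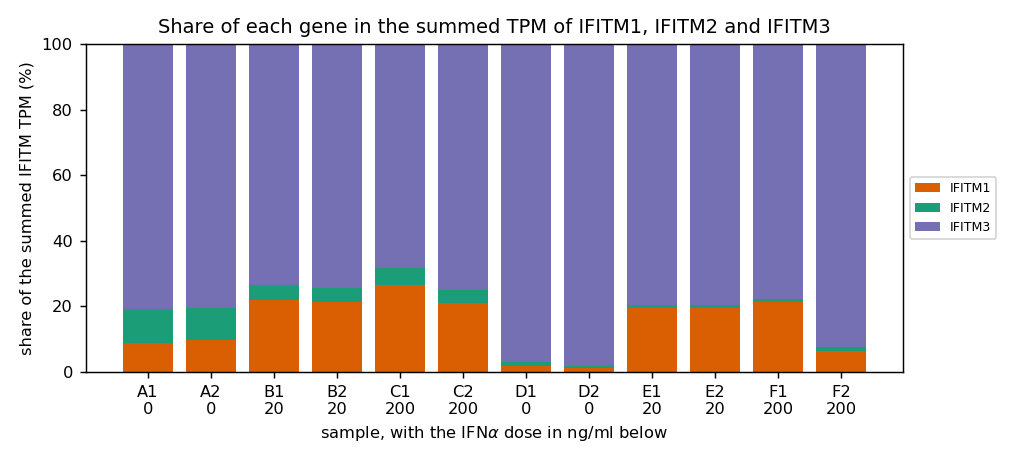
Share of IFITM1, IFITM2 and IFITM3 in their summed TPM (y, %) in each sample (x), with the IFNα dose below each name. IFITM1 takes 1.40% to 9.65% in the controls and 6.46% to 26.5% in the treated samples, and the green IFITM2 segment is thin in every D-F sample.

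The table divides the family into 14 transcripts, of which 13 passed the filter on low counts. Counts of transcripts that share exons are estimates. In both comparisons with control 4 transcripts were called higher and none lower, against 0.343% of 75876 transcripts called higher at 200 ng/ml and 0.24% at 20 ng/ml. IFITM3-201, the main transcript of IFITM3, was among them, and it rose by 2.43 on the log2 scale at the high dose (SE 0.21, adjusted p = 0.00327) and by 2.39 at the low dose (SE 0.21, adjusted p = 0.00408). IFITM3-203, which is annotated as a target of nonsense-mediated decay, rose with it, by 2.56 and 2.82. The other 2 transcripts of IFITM3, IFITM3-202 and IFITM3-204, stayed at or below 17.3 TPM in every sample and were not called over both line sets. Each held from 9 to 68 counts, nearly the same number as the other in every sample. Both were called higher at 200 ng/ml within A-C (3.04 each, adjusted p = 0.0434 and 0.0421) and had -1.67 and -1.73 within D-F, which were not called. The difference between these responses was -4.71 and -4.78 and did not pass the test (adjusted p = 0.0652 for each). In D-F both were called higher than in A-C in the controls (2.15 each) and lower at 200 ng/ml (-2.56 and -2.62).

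The transcripts to which IFITM1 reads were given differed between samples. IFITM1-201 held 343 and 539 of the 382 and 570 counts in A1 and A2, and 2604 to 3588 counts in the treated A-C samples. In E1 and E2 it held 2919 and 2893 counts, but in D1, D2, F1 and F2 it was listed with 0 counts. In F1 and F2 the counts stood instead under IFITM1-204 (2306 and 426) and IFITM1-202 (873 and 416), and in D1 and D2 all 46 and 17 counts stood under IFITM1-202. IFITM1-201 was called higher at 20 ng/ml and IFITM1-204 at 200 ng/ml. F2, with 845 counts for the whole gene beside 3180 in F1, is also a sample in which IFITM1-201 was listed at 0, and the part of this assignment in its low value was not tested.

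IFITM2-201, the transcript that is mostly IFITM1 sequence, rose by 5.17 on the log2 scale at the high dose (adjusted p = 0.0142) and by 4.69 at the low dose (adjusted p = 0.0243), fitted values that rest on controls at 0 in D-F. It had 12 counts in each of A1 and A2, 15 and 50 in B1 and B2 and 55 and 42 in C1 and C2. In D-F it had 0 counts in both controls, 30 and 29 in E1 and E2 and 25 and 36 in F1 and F2. It held 2.41% to 9.60% of the IFITM2 counts in the A-C samples and 26.3% to 40.5% in the treated D-F samples. The other transcripts together had 18 and 8 counts in D1 and D2 and 44 to 78 counts in the treated D-F samples. The division of IFITM2 reads among its remaining transcripts varied between replicates, as IFITM2-202 held 50.3 TPM in A2 but 3.88 TPM in A1.

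**Figure D5:**
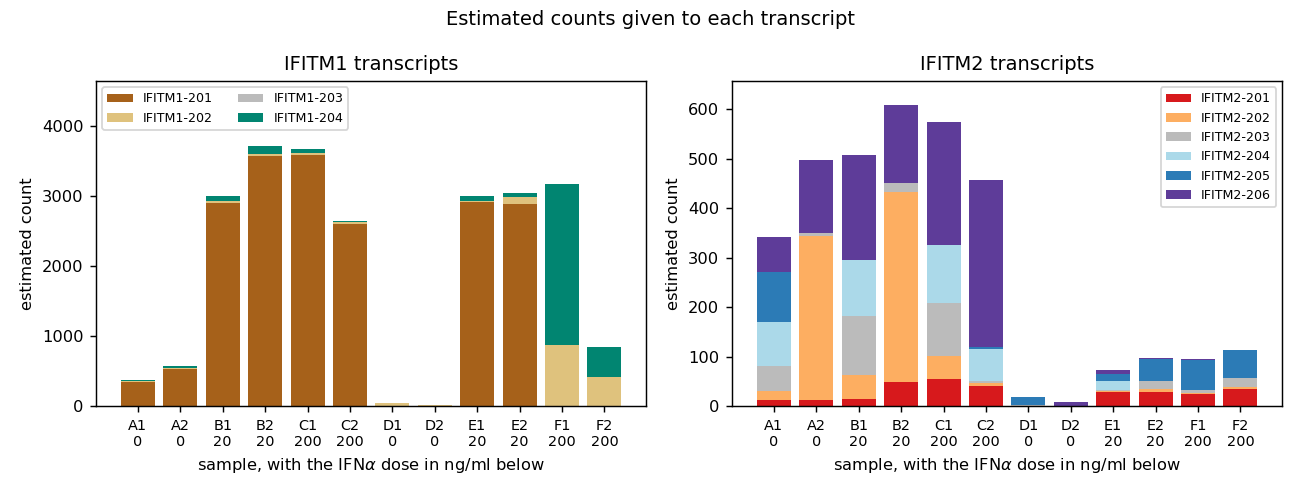
Estimated counts (y) given to each transcript of IFITM1 (left) and IFITM2 (right) in each sample (x), with the IFNα dose below each name. IFITM1-201 carries most IFITM1 counts except in D1, D2, F1 and F2, where it is 0, and the red IFITM2-201 segment is 25 to 36 counts in the treated D-F samples.

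Genes listed under type I interferon signalling were examined beside the family. At 200 ng/ml 1.58% of all genes tested were called higher, and at 20 ng/ml 0.963% were. Of 11 type I interferon signalling genes, 5 were called higher at each dose and none lower. Among them, STAT2, a subunit of ISGF3, rose by 1.80 (log2) at the high dose, and IRF9, which brings ISGF3 to DNA, rose by 2.69. USP18, which holds the receptor in check, rose by 4.16, and ISG15, a ubiquitin-like modifier, by 4.20. The receptor subunits IFNAR1 and IFNAR2 and the kinases JAK1 and TYK2 were not called, with values between -0.11 and 0.10 at 200 ng/ml. The median of the list was 0.40 at 200 ng/ml, beside -0.01 over all genes tested. Like the family, 4 of the 11 genes were called lower in the D-F controls and none higher, beside 11% of all genes tested called lower. They were SOCS1, ISG15, USP18 and IRF9, with log2 differences of -3.62, -2.14, -1.45 and -1.20.

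Genes whose products modify or bind IFITM proteins were not called in either direction. All 9 of them passed the filter, and their median log2 fold change was -0.05 at both doses. Of all 19944 genes tested, 316 were called higher and 110 lower at 200 ng/ml, and 192 and 37 at 20 ng/ml. With so few genes called, 9 genes without a call do not set this list apart. NEDD4, a ubiquitin ligase of IFITM3, had 0.35 at 200 ng/ml, a change of less than 2-fold with an adjusted p of 0.0127 in the edgeR test. ZDHHC20, which attaches palmitate to IFITM3, had -0.26. SETD7 and KDM1A, which add and remove a methyl group on IFITM3, had -0.16 and 0.15. ZMPSTE24, a protease that works with IFITM proteins, had 0.07.

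None of the other CD225-domain genes was called against control at either dose. Of 9 listed, 8 were found under these symbols and 4 passed the filter on low counts. Since 1.58% of all genes tested were called higher at 200 ng/ml and 0.963% at 20 ng/ml, 4 genes without a call say little. Between the controls 2 of the 4 were called higher in D-F, the opposite direction to IFITM1, IFITM2 and IFITM3. Of the 19944 genes tested, 3124 were called higher there, so 2 of 4 genes say little about these relatives. IFITM10 had 0.160 TPM in the A-C controls and 8.53 TPM in the D-F controls, a log2 difference of 6.07 (adjusted p = 1.75e-05). PRRT2 differed by 2.86 (adjusted p = 0.0307) at low levels of 0.527 and 1.36 TPM. IFITM5, the bone-restricted neighbour of IFITM2, had 0 counts in all samples.

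The family was next set beside other antiviral genes. All 6 IFIT and MX genes, whose products bind viral RNA or nucleocapsids inside the cell, were called higher, and the median of their log2 fold changes was 4.16 at the high and 3.72 at the low dose. MX1 rose by 4.57 and IFIT1 by 4.87, near IFITM1 with 4.74, whereas IFIT5 rose by 1.92, near IFITM2 with 2.02. Of 8 other genes that act at membranes, 7 passed the filter and 4 were called higher at each dose. For both lists the background was 1.58% of the 19944 tested genes called higher with the high dose and 0.963% with the low dose. RSAD2, which encodes viperin, rose by 5.30 at 200 ng/ml, PLSCR1, a phospholipid scramblase, by 2.33, BST2, which tethers budding virions, by 1.97, and LY6E, a surface protein that blocks coronavirus entry, by 1.11. SERINC3, SERINC5 and NCOA7 were not called because they changed less than 2-fold. At 200 ng/ml they had -0.26, -0.52 and 0.60, with adjusted p-values of 0.0305, 0.00182 and 9.69e-04 in the edgeR test.

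The control levels of these genes did not all differ in the same direction between the line sets. Of the 7 other membrane-acting genes tested, 2 were called higher in the D-F controls, beside 3124 of all 19944 genes tested. They were BST2, by 1.76, and LY6E, by 1.45, while IFITM1, IFITM2 and IFITM3 were lower. Of the 6 IFIT and MX genes, 4 were called lower in the D-F controls, beside 11% of all genes tested. At 200 ng/ml, 3 responses were called larger in D-F, beside 0.998% of genes called in either direction. MX1 and IFIT3 were in both groups, with log2 control differences of -1.43 and -2.01. Their responses were larger in D-F by 1.28 and 1.77, beside 2.59 for IFITM2 and 1.64 for IFITM3. IFIT5 had -0.01 and 0.19 in these comparisons, neither called. The responses of BST2 and LY6E differed by -0.34 and 0.12 and were not called.

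The genes around the family were also examined. Within 100 kb of the span from 307631 to 327537 lay 21 other genes, of which 10 passed the filter. None was called higher at either dose, beside 1.58% of all genes tested at 200 ng/ml and 0.963% at 20 ng/ml. With shares this small, 10 genes without such a call do not set the region apart. AC136475.1, which lies on the strand opposite to IFITM3 and overlaps it, was called lower at 200 ng/ml. Its mean level was 0.903 TPM in the A-C controls and 0 in C1 and C2, and 5.21 and 3.98 TPM in the D-F groups at 0 and 200 ng/ml, on at most 46 counts in any sample. Between the controls, PGGHG and AC136475.3 were called lower in D-F, like the family, and ANO9, B4GALNT4 and AC136475.1 were called higher. Of all 19944 genes tested, 2186 were called lower there and 3124 higher. PGGHG, a glycosidase gene next to IFITM5, had 31.5 TPM in the A-C controls and 9.29 TPM in the D-F controls.

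The genes most like each member were found by Pearson's r of log2(TPM + 1) over the 12 samples among 22434 genes, as a description, since the samples share libraries, doses and line sets. For IFITM1 they were IRF9 (r = 0.967), LAMP3, REC8, PARP9 and TRIM26 (r = 0.964). For IFITM3 they were TRIM26 (r = 0.983), HIST3H2A, IFI6, PARP12 and OASL (r = 0.977). For IFITM2 they were STAT6 (r = 0.994), CXCL8, CTSS, TNFAIP3 and CXCL1 (r = 0.976). STAT6, the factor of interleukin-4 signalling, changed by only 0.30 at 200 ng/ml, and its TPM was 125 and 75.3 in the controls of A-C and D-F and 133 and 113 at 200 ng/ml. CXCL8, a neutrophil chemokine, had 182 and 24.6 TPM in these controls and 222 and 107 TPM at 200 ng/ml. All 5 genes, like IFITM2, were lower in D-F than in A-C at every dose. Among the members, r was 0.952 for IFITM1 and IFITM3, 0.781 for IFITM1 and IFITM2, and 0.653 for IFITM2 and IFITM3.

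Total estimated counts were between 10517448 and 16056734 per sample, so that 3 counts, the limit that a count of 0 allows, correspond to 0.187 to 0.285 CPM, for counting error only. The squamous epithelial identity given for the lines was checked on 8 markers. All reached 1 TPM in every A-C group and 7 did in every D-F group, where KRT14 was at 0 in the controls and at 20 ng/ml, and their sum was 2199 to 2831 TPM in A-C and 1016 to 1261 TPM in D-F. KRT6A and KRT14 were called higher at 200 ng/ml, beside 1.58% of all genes tested, and none at 20 ng/ml. The fold change of KRT14 rests on D-F controls at 0 and D-F values under 1 TPM at 200 ng/ml. Its mean over both line sets was 21.8 TPM in the controls and 24.1 TPM at 200 ng/ml. Of 6 immune markers PTPRC and CD3E, which define leukocytes and T cells, had means over the 4 samples of a dose of at most 0.0191 TPM. CD68, 1 of 3 that passed the filter, was called higher, with a mean of 7.51 TPM in the controls and 27.6 TPM at 200 ng/ml. It was called at both doses, at which 1.58% (200 ng/ml) and 0.963% (20 ng/ml) of all genes tested were called higher. The immune sum was 5.37 to 12.6 TPM in the controls and 19.0 to 40.6 TPM at 200 ng/ml, and its part in the results was not tested. Fibroblast and endothelial markers summed to at most 15.4 and 21.7 TPM. Only 3 and 1 of them passed the filter, and none was called against control at either dose. Between the controls, 5 of the 8 squamous markers were called lower in D-F, beside 11% of all genes tested. They were KRT14 and, with log2 differences of -1.15 to -2.15, TP63, KRT17, KRT5 and KRT6A. The endothelial marker CDH5 was also lower there (15.8 TPM in the A-C and 0.117 TPM in the D-F controls), as was the fibroblast marker PDGFRB (-1.91), and their part in the line set differences was not tested.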

How the data were processed

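Libraries were made from total RNA after rRNA removal, kept strand and were sequenced on a HiseqXTen instrument. The submitters' processing notes name Trimmomatic 0.36, HISAT2 2.1.0, StringTie 1.3.3b and GRCh38.p10, without their roles, and the annotation release is not given in the sources used here. The authors deposited an estimated count, given as an unscaled whole number, and a TPM value, scaled for length and depth, for each gene and transcript. For all 60099 genes the count was the sum over the gene's transcripts. Between 1.03% and 1.56% of counts lay in loci without a symbol. The authors' methods screened by fold change and a t-test, which was not used here.

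Estimated counts were fitted with edgeR 4.0.16 in R 4.3.3 (TMM, filterByExpr, quasi-likelihood test, 6 groups of line set and dose), adjusted over all 19944 genes or 75876 transcripts. The SE was obtained as the size of the fold change (log2) over the root of the F statistic. Alternatives were DESeq2 1.42.0, RLE or upper-quartile factors, no filter, a replicate block, only the doses compared, no line set in the fit, the members summed, the study's threshold, and each sample left out. Shares and log2 ratios (TPM + 0.01) were tested by exact permutation within line sets. Python 3.11.15, pandas 2.3.3, numpy 2.4.6, Biopython 1.88 and matplotlib 3.10.9 were used for the rest. The gene fit was tested on simulated data.

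The members and gene lists were chosen with earlier results of these data known. Named genes were the members, the lists, all genes within 100 kb, and the 5 genes most like each member among those with a mean of at least 1 TPM in a group. Replicates of a group differed by more than counting noise (chi-square per degree of freedom 14.4 to 19.9). Samples with the same replicate number deviated with correlations of -0.05 to 0.07, so the numbers do not pair them. Values of some listed genes are not reported here.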

Additional observations from a re-analysis of the deposited data

Results flagged for a closer look

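The log2 TPM ratio of IFITM1 over IFITM2 was 4.56 in F1, far from the other samples at 200 ng/ml, which lay between 2.33 and 2.36. The D-F samples at 20 ng/ml had 4.66 and 4.30, so that among the treated D-F samples F2, with 2.33, was the distant one, and the A-C samples at 20 ng/ml had 2.30 and 2.29. It was the only one of 27 groups of 4 samples with such a distant value, and about 1.35 would be expected by chance at 1 in 20. The groups joined 2 line sets whose ratios differed, and IFITM2 was lower in both F samples than in both C samples. In 3 comparisons the response to IFNα differed between the line sets by a test of the difference itself. The response of D-F exceeded that of A-C on the log2 scale by 2.59 for IFITM2 and by 1.64 for IFITM3 at 200 ng/ml, and by 2.53 for IFITM2 at 20 ng/ml. None of these 3 calls held with a replicate block (adjusted p = 0.0585, 0.0714 and 0.104). The block also left fewer calls of this difference among all genes. At 200 ng/ml 40 were called higher and 29 lower with it, against 124 and 75 without it. At 20 ng/ml these numbers were 24 and 6, against 33 and 13. The call of IFITM3 was lost without any 1 of 10 of the 12 samples, that of IFITM2 at 200 ng/ml without F2, and that of IFITM2 at 20 ng/ml without any 1 of 5 samples or without IFITM2-201.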

How the results depend on the processing

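The rise of all 3 genes at both doses kept its direction in every alternative and its call in all but the fits with no line set, which gave 3.71 and 3.81 for IFITM1 and 0.91 and 0.68 for IFITM2 at 200 and 20 ng/ml, none of them called. The difference in response between the line sets was the least stable result. With a replicate block it was 2.59 and 2.53 for IFITM2 at 200 and 20 ng/ml (adjusted p = 0.0585 and 0.104) and 1.70 for IFITM3 at 200 ng/ml (adjusted p = 0.0714), none called, the block also turned IFITM1 in D-F against A-C at 20 ng/ml to 0.58, and it left 1 transcript called higher at 200 ng/ml. Upper-quartile factors gave 1.61 for IFITM3 at 200 ng/ml (adjusted p = 0.0505), and IFITM2 without IFITM2-201, an alternative added after seeing the data, gave 1.96 at 20 ng/ml. DESeq2 called 3.14 and 3.98 for IFITM1 at 200 and 20 ng/ml and 1.63 for IFITM3 at 20 ng/ml. The study's threshold on unadjusted p called 3.17 and 4.0 for IFITM1 and 1.65 for IFITM3. Summing the members gave 1 value for all 3: a line set difference in response of 1.64 at 200 ng/ml, which was called, and of 1.81 at 20 ng/ml, which was not, 0.041 for 200 against 20 ng/ml, and for D-F against A-C 0.11 at 20 ng/ml and -0.053 at 200 ng/ml. The cause was not tested.

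Leaving out each sample in turn gave, on the log2 scale, 4.09 to 5.18, 1.77 to 2.37 and 2.25 to 2.74 for IFITM1, IFITM2 and IFITM3 at 200 ng/ml, and 4.62 to 5.36, 1.52 to 2.13 and 2.18 to 2.69 at 20 ng/ml, all called. The line set difference in response ranged over 1.89 to 4.06, 2.12 to 3.29 and 1.23 to 2.20 at 200 ng/ml, and over 3.44 to 4.87, 2.05 to 3.21 and 1.24 to 2.19 at 20 ng/ml. The call of IFITM3 at 200 ng/ml was lost without any 1 of 10 of the 12 samples, that of IFITM2 at 200 ng/ml without F2, and that of IFITM2 at 20 ng/ml without A2, B1, B2, E1 or E2. IFITM1 ranged from -0.81 to 0.15 for 200 against 20 ng/ml, and for D-F against A-C from -0.074 to 0.0054 at 20 ng/ml and from -2.14 to -0.21 at 200 ng/ml. The transcripts called higher numbered 2 to 4 at 200 ng/ml. The ratio of IFITM2 over IFITM3 moved by -0.94 to 0.53 at 200 ng/ml and by -1.11 to 0.37 at 20 ng/ml. Of the 5 genes most like IFITM1, 3 stayed with log2(TPM + 0.01) and 2 with log2 CPM, beside 3 and 4 of those of IFITM2 and 5 and 2 of those of IFITM3, where TRIM26 was among those lost with log2 CPM. Depth limits IFITM2 most, at 8 and 18 counts in the D-F controls.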
